A study of Mus musculus with 8 samples.

Results

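Described here are 5 genes, Lars2 and 4 called ribosomal-RNA-like (Gm42418, AY036118, CT010467.1 and Gm15564). The data are RNA sequencing of cells sorted as B cell precursors from mouse bone marrow. Lars2 was chosen by its measured values, as it led the genes that were higher in lactoferrin-deficient (Lf-/-) than in wild-type (WT) pre-pro-B cells, and the other 4 were added because such loci often collect reads of ribosomal RNA. All 5 were among the 52550 genes with a value in each library. The question asked was whether the 5 moved together from library to library.

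Lars2 encodes the mitochondrial leucyl-tRNA synthetase, the enzyme that charges mitochondrial tRNA with leucine for translation inside the organelle. Ribosomal RNA makes up most of the RNA of a cell, and it is transcribed from repeated genes as a long precursor by RNA polymerase I. Preparation of sequencing libraries usually removes it or passes over it, and what remains is assigned to the annotated loci that share its sequence.

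The mice carried the C57BL/6J strain label, and the WT controls were littermates matched for age, which the labels do not state. From WT mice and from mice lacking lactoferrin, cells of both stages were sorted by flow cytometry, with no treatment named. Each stage and genotype had 2 libraries except WT pro-B, which had 1, since its second sample was not analysed here. Values are FPKM, that is, fragments scaled by transcript length and by the fragments of the whole library. The study's methods name several mice per group, and the sample titles repeat a knockout mouse code, KO1 or KO2, at both stages. Neither says outright how mice and libraries correspond. Replicates may therefore be technical, and libraries of the 2 stages may share mice, though the stage comparisons treat them as independent. The p-values measure only the spread between these libraries.

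Ltf, the gene that encodes lactoferrin, was at 2143 FPKM in the lowest WT library and at 168 FPKM in the highest Lf-/- library, so the genotype labels fit the values. Genes of the early B lineage were detected in every library, but their sum lay far below that of neutrophil genes in each. It was lowest in WT pro-B, below both WT pre-pro-B libraries. The values therefore do not bear out the sorted stages, and the stage names used here are those of the labels. The 15 genes of that list summed to between 196 FPKM (WT pro-B) and 2832 FPKM (Lf-/- pre-pro-B replicate 1), and Cd79a, a part of the B cell receptor, was the most abundant in every library. Rag2, of the recombinase, was listed at 0 in replicate 2 of Lf-/- pre-pro-B, and Rag1, its partner, in the WT pro-B library. The neutrophil list of 14 genes, Ltf among them, summed to between 166290 and 431594 FPKM in the same libraries, with S100a8 the most abundant. Fewer cells of a type and less RNA per cell cannot be told apart in such bulk samples.

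One library stood apart. In replicate 2 of Lf-/- pre-pro-B, many genes that every cell uses were listed at 0, such as Lars, the cytosolic leucyl-tRNA synthetase, and its sequencing depth could not be read from the values. The pre-pro-B differences of the genes and lists described most closely are given with and without it.

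Of the 4 ribosomal-RNA-like genes, 3 occupy a single place. On GRCm38, CT010467.1, annotated as rRNA, lies at chr17:39846353-39848827 on the minus strand, the lincRNA Gm42418 at chr17:39846958-39848788 on the plus strand, and the lincRNA AY036118 at chr17:39847113-39848035 on the minus strand. All 1831 bases of Gm42418 and all 923 bases of AY036118 fall within CT010467.1, so the 3 share their sequence. The first 40 bases of AY036118 are shown as they occur in the transcripts of all 3 genes, 5′ to 3′, in GENCODE M21; Gm42418 holds them on the opposite strand.
AY036118: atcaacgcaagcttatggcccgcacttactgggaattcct
CT010467.1: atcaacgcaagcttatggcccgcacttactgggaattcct
Gm42418: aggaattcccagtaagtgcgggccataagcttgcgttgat
The 923 bases of AY036118 were identical to bases 167 to 1089 of a CT010467.1 transcript and, read on the opposite strand, to bases 156 to 1078 of the Gm42418 transcript. Whether the authors' counting used strand is not given in the sources used here, so reads from these 3 genes cannot be told apart, and their separate values are uncertain.

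Gm15564, an antisense transcript at chr16:35966752-35983230 on the minus strand, and Lars2, a protein-coding gene at chr9:123366927-123462666 on the plus strand, lie elsewhere. A stretch of 72 bases in the 3′ UTR of Lars2 (chr9:123462048-123462119) was 98.6% identical to bases 179 to 250 of a Gm15564 transcript. No transcript of Lars2 or Gm15564 matched the chromosome 17 loci in the blastn comparison of the 5 genes. Lars2 therefore shares a short stretch with 1 of the other 4 genes and none with the remaining 3 at the similarity searched. That stretch is not particular to the pair, as it also matched AA474408. Over all GENCODE M21 transcripts, those of Lars2 matched 1611 other genes and those of Gm15564 matched 495. For Gm15564 the name ribosomal-RNA-like rests on the choice of genes, since no likeness of its sequence to ribosomal RNA was found here.

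In WT pre-pro-B cells Lars2 measured 0.284 and 0.199 FPKM, in their Lf-/- counterparts 45.1 and 67.7 FPKM, in the WT pro-B library 0.0818 FPKM, and in the Lf-/- counterparts of that stage 0.185 and 7.91 FPKM (replicates 1 and 2 in this order throughout). Lars2 was high in 3 libraries, both of Lf-/- pre-pro-B and replicate 2 of Lf-/- pro-B, and the other 4 were below 1 FPKM. From the depth that low values show, and over the longest transcript of 3894 bases, Lars2 had about 12.4, 9.24, 4.52 and 8.12 fragments in the 4 low libraries, 2000 in the first Lf-/- pre-pro-B replicate and 475 in the second Lf-/- pro-B replicate. By FPKM, Lars2 ranked 1011 and 881 among all genes in the Lf-/- pre-pro-B libraries and 13674 and 14352 in their WT counterparts.

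Because the gene was chosen for the pre-pro-B contrast, its difference there is given as a description. On the log2(FPKM + 1) scale, which makes changes of low genes look smaller, Lf-/- minus WT was 5.50 with a standard error of 0.46, and the lowest Lf-/- value was 159-fold the highest WT value. Without Lf-/- pre-pro-B replicate 2 it was 5.22. Between the 4 libraries of the contrast, both Lf-/- values lay above both WT values for Lars2 and CT010467.1 and not for Gm42418, and for 15.5% of the 9720 genes tested. With the rule having used this contrast for Lars2, nothing is read from that count.

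**Figure D1:**
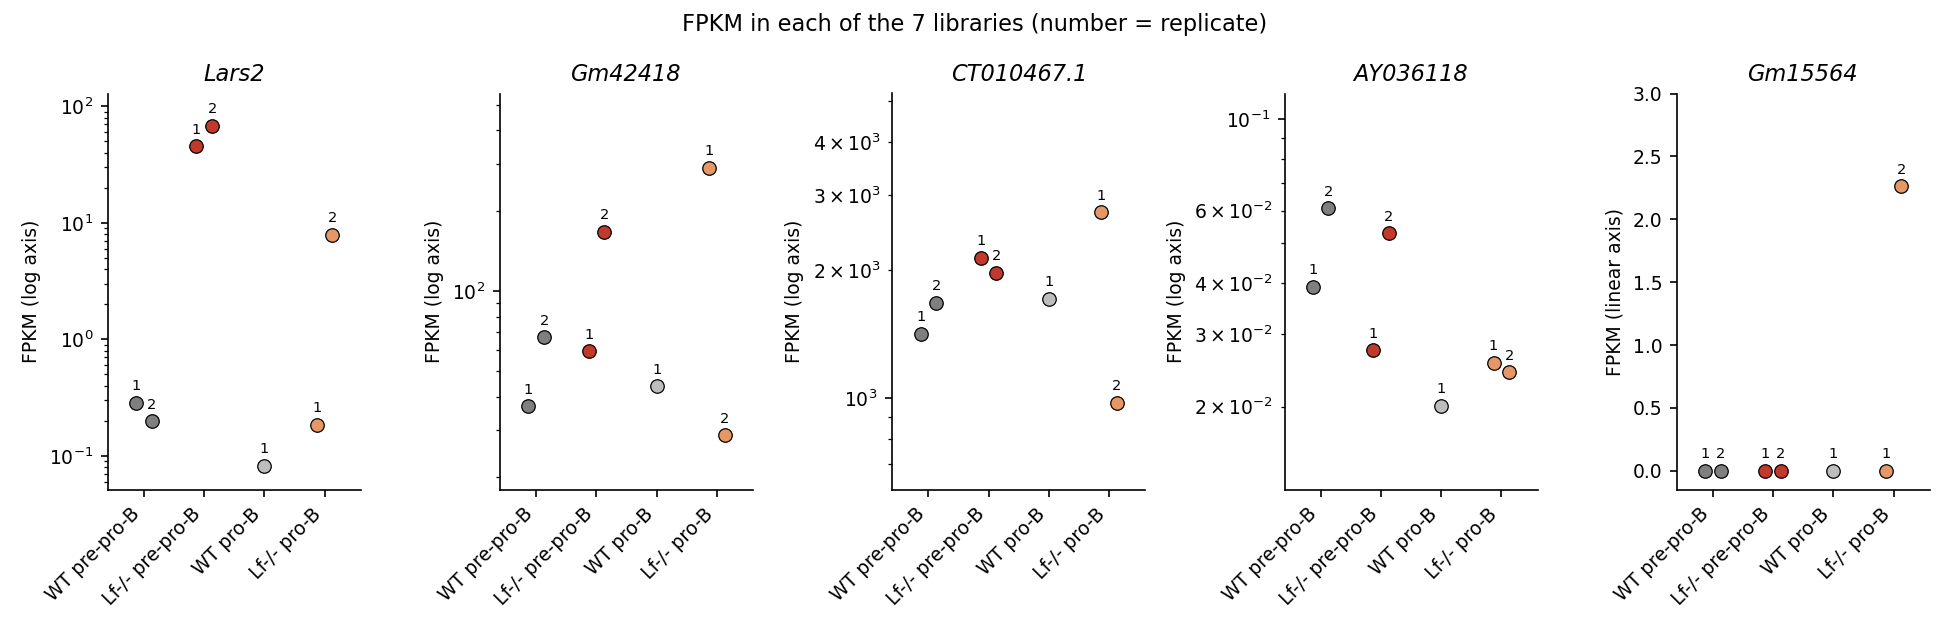
FPKM of the 5 genes in each library, by group, with the replicate number over each point; the axis is logarithmic except for Gm15564. Lars2 is high in both Lf-/- pre-pro-B libraries and in Lf-/- pro-B replicate 2, while Gm42418 and CT010467.1 are highest in Lf-/- pro-B replicate 1.

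The pro-B libraries were not used to choose Lars2. There the mean of the Lf-/- libraries exceeded the WT value by 1.59 on the log2(FPKM + 1) scale (higher in 2 of 2 Lf-/- libraries). The standard error was 1.07 in limma's fit over all 7 libraries, in which the lone WT pro-B library is assumed to vary like the other groups. Lars2 passed the filter of that fit only through Lf-/- libraries, those that chose it among them. Their values also enter its standard error, so no p-value is read for Lars2. The 2 Lf-/- pro-B libraries differed from each other by 42.8-fold, with the value of replicate 1 close to those of the WT libraries. The difference was 0.13 without Lf-/- pro-B replicate 2 and 3.04 without replicate 1, so 1 library decides it. With a pseudocount of 0.1 it was 3.05. Of the 2 other genes that passed the filter, Gm42418 and CT010467.1, 0 had an adjusted p under 0.05, as did 0% of the 10793 genes tested. An unadjusted p under 0.05 was reached by 0 of these 2, against 4.33% of all genes. Both Lf-/- pro-B values lay above the WT value for Lars2 and not for Gm42418 or CT010467.1, and for 75.3% of all genes.

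The stage comparison within Lf-/- cells involves the libraries that led to the choice of Lars2, and its value is again a description: pro-B minus pre-pro-B was -4.12 with a standard error of 0.87 on the log2(FPKM + 1) scale, and it was -2.66 without Lf-/- pro-B replicate 1 and -5.57 without replicate 2. Within WT cells the same difference was -0.20 with a standard error of 1.07, from values under 1 FPKM in every WT library. The difference between the genotype differences of the 2 stages was -3.92 with a standard error of 1.38, also a description, and it was -2.46 and -5.37 without the same libraries. In order of level, Lf-/- pre-pro-B cells came first, and the next group, Lf-/- pro-B, had 1 library below both WT pre-pro-B values and 1 above them.

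Lars2 lies 12.3 Mb from Ltf on chromosome 9. Its 5 nearest expressed protein-coding neighbours on one side were Exosc7, Zdhhc3, Tmem42, Kif15 and 1110059G10Rik, and on the other Limd1, Sacm1l, Cxcr6, Ccr1 and Ccr3. Exosc7, which encodes a subunit of the RNA exosome, measured 11.2 and 8.58 FPKM in WT against 8.77 and 11.8 FPKM in Lf-/- libraries of the pre-pro-B stage. Limd1, the nearest on the other side, measured 0.697 and 0.873 FPKM in WT against 1.62 and 0.544 FPKM in Lf-/- libraries, and Sacm1l, next to it, at 1.48 and 1.41 against 1.10 and 1.51 FPKM. Of the 10 neighbours, the genotypes overlapped in 8, these 3 among them. Both Lf-/- values lay below both WT values for Kif15, a mitotic kinesin, and Ccr3 (17.7% of all genes tested), and above them for 0 of the 10 (15.5%). Those shares are of genes that passed the filter, as 8 of the 10 neighbours did. Kif15 measured 1.79 and 2.44 FPKM in WT against 1.75 and 1.63 FPKM in Lf-/- libraries.

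Of the 40 genes within 5 Mb of Lars2 that were tested in pre-pro-B cells, 16 were higher and 24 lower in Lf-/- cells, with a median difference of -0.12 on the log2 scale against 0.03 for all 9720 genes. With median-ratio scaling 12 of the 40 were higher, with a median of -0.20 against -0.10 for all genes, and without Lf-/- pre-pro-B replicate 2 it was 10, with a median of -0.21 against -0.10. The range of these 40 ran from -1.52, for the chemokine receptor Ccr3, to 1.20, below the value for Lars2. At an unadjusted p under 0.05, 1 of them was lower, Ccr3 (0.926% of all genes), and 0 were higher (2% of all genes). Ccr3 passed the filter only through the WT libraries, where it was high, so nothing is read from that call. An adjusted p under 0.05 was reached by 0 of the 40 (0% of all genes). Ccr3 measured 2.97 and 2.16 FPKM in WT against 0.525 and 0 FPKM in Lf-/- libraries, and its difference was -1.22 without the second of these. The 54 genes tested between Ltf and Lars2 split evenly, 27 higher and 27 lower, with a median of 0.003 that was -0.15 without the library that stood apart; 1 of them was lower at an unadjusted p under 0.05. At the pro-B stage the medians of these lists, 0.44 and 0.44, lay near that of all genes, 0.48, a shift that median-ratio scaling between libraries brought to 0.01 (lists: -0.0141 and -0.0183); 1 and 2 of their genes were higher at an unadjusted p under 0.05, against 4.18% of all genes.

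**Figure D2:**
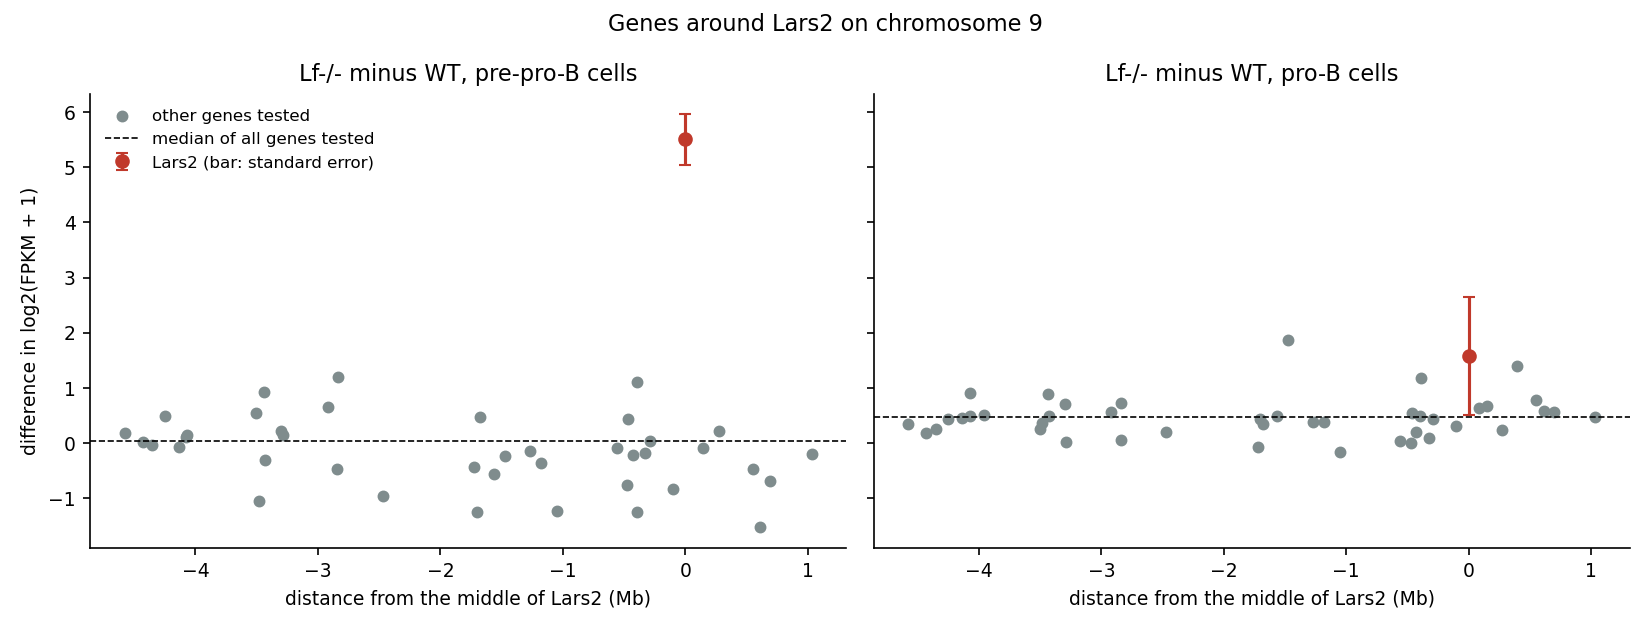
Difference between Lf-/- and WT cells on the log2(FPKM + 1) scale for the genes tested within 5 Mb of Lars2, against distance from the middle of Lars2 in Mb, in pre-pro-B (left) and pro-B cells (right). In pre-pro-B cells Lars2 is at 5.50 and the other genes lie between -1.52 and 1.20.

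The genes whose profile over the 7 libraries was most like that of Lars2 were Igkv10-96 (Pearson's r = 0.904), Ighg2c (0.887), Ighv8-5 (0.882), Ly6d (0.860), Iglj1 (0.847), Cd38 (0.847), Slamf9 (0.836) and Igkv4-90 (0.825), out of 851 genes with a standard deviation of at least 1 on the log2 scale. These values are a description, since the Lars2 libraries fall into a high and a low cluster. Igkv10-96, Ighg2c, Ighv8-5, Iglj1 and Igkv4-90 are segments or constant regions of immunoglobulin genes, and Ly6d, Cd38 and Slamf9 encode surface proteins. Igkv10-96 measured 293 and 578 FPKM in WT against 2636 and 3419 FPKM in Lf-/- libraries of the pre-pro-B stage, and 137 FPKM against 277 and 409 FPKM at the pro-B stage. Ly6d was at 447 and 258, 2288 and 2872, 134, and 936 and 899 FPKM in the same order. Both genes were highest in the Lf-/- pre-pro-B libraries, but Ly6d stood at like levels in both Lf-/- pro-B libraries, where Lars2 did not.

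Marker lists were compared between the genotypes as well. The 15 early B lineage genes summed to 520 and 478 FPKM in WT against 2832 and 2188 FPKM in Lf-/- libraries of the pre-pro-B stage, and to 196 FPKM in WT against 2508 and 1426 FPKM in Lf-/- pro-B cells. All 14 tested were higher in Lf-/- cells at either stage, 7 (pre-pro-B) and 10 (pro-B) of them with an unadjusted p under 0.05, against 2% and 4.18% of all genes. In the same pro-B fit all 7 tested T and NK cell genes were higher (median 1.29), 5 of them with an unadjusted p under 0.05. So were all 4 tested plasmacytoid dendritic cell genes (median 1.47), 2 of them at that threshold. Of these T and NK cell genes 1, and of these plasmacytoid genes 3, passed the filter in the pre-pro-B libraries alone. The rest passed it with the help of pro-B libraries, which are the ones compared, so nothing is read from the T and NK or plasmacytoid counts. Lf-/- pro-B replicate 1 had the larger B lineage sum of its group and Lars2 at 0.185 FPKM. The 14 neutrophil genes summed to 301782 and 288922 FPKM in WT against 308160 and 166290 FPKM in Lf-/- libraries of the pre-pro-B stage, and 431594 FPKM against 240180 and 279252 FPKM at the pro-B stage, with S100a8 the most abundant and none at 0. In the fits 0 of 14 were higher in Lf-/- pre-pro-B cells (median -0.35) and 3 of 14 in Lf-/- pro-B cells (median -0.74). At an unadjusted p under 0.05 in limma's test, 1 (pre-pro-B) and 2 (pro-B) of the 14 were lower, against 0.926% and 0.148% of all genes. The 1 pre-pro-B call was Ltf itself, the knocked-out gene, and so was 1 of the 2 pro-B calls. Its fall was set by the design, so nothing is read from these neutrophil counts. Without Lf-/- pre-pro-B replicate 2, the pre-pro-B counts were 13 of 14 higher for the early B lineage (median 1.40, from 1.25) and 4 of 14 for neutrophils (median -0.56). The part of B lineage cells and of neutrophils in the Lars2 difference was not tested.

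CT010467.1 was the most abundant of the 5 genes. It measured 1415 and 1674 FPKM in WT against 2137 and 1969 FPKM in Lf-/- libraries of the pre-pro-B stage, and 1708 FPKM against 2734 and 972 FPKM at the pro-B stage, and ranked between 31 and 59 among all genes in every library. The highest and the lowest value of all 7 libraries were the 2 replicates of Lf-/- pro-B. Gm42418 measured 36.9 and 67.0 FPKM in WT against 59.3 and 167 FPKM in Lf-/- libraries of the pre-pro-B stage, and 43.9 FPKM against 289.6 and 28.8 FPKM at the pro-B stage. Its highest and lowest values fell in the same 2 libraries as those of CT010467.1, which differed by 10.1-fold for Gm42418 and 2.81-fold for CT010467.1.

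AY036118 measured 0.0392 and 0.0608 FPKM in WT against 0.0275 and 0.0528 FPKM in Lf-/- libraries of the pre-pro-B stage, and 0.0201 FPKM against 0.0256 and 0.0242 FPKM at the pro-B stage. In the 6 libraries of known depth this is below the worth of 1 fragment, although its whole length lies within CT010467.1. Gm15564 was listed at 0 in 6 libraries and at 2.26 FPKM in Lf-/- pro-B replicate 2, a library in which Lars2 was at 7.91 FPKM, while it was listed at 0 in both Lf-/- pre-pro-B libraries, where Lars2 was higher. Neither AY036118 nor Gm15564 passed the filter of at least 1 FPKM in at least 2 libraries, and 3 of the 5 genes did.

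In pre-pro-B cells, Lf-/- minus WT on the log2(FPKM + 1) scale was 0.99 with a standard error of 0.64 for Gm42418 (adjusted p = 0.941 in limma's test) and 0.41 with a standard error of 0.44 for CT010467.1 (adjusted p = 0.941). Of these 2 genes, 0 passed an unadjusted p of 0.05, against 2.92% of the 9720 genes tested. Without Lf-/- pre-pro-B replicate 2 the differences were 0.25 for Gm42418 and 0.47 for CT010467.1, and without replicate 1 they were 1.73 (standard error 0.45, limma's adjusted p = 0.0514) and 0.36. In that last setting the lone Lf-/- library is the one that stood apart, it is assumed to vary like the WT libraries, and 2856 of all genes passed an adjusted p of 0.05. Over each library left out, Gm42418 ran from 0.25 to 1.73 and CT010467.1 from 0.29 to 0.54. The genotypes of Gm42418 overlapped. Those of CT010467.1 did not, as for 15.5% of all genes with both Lf-/- values above both WT values, but with all 4 libraries neither gene's difference reached 2 standard errors.

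In pro-B cells the difference was 1.05 with a standard error of 1.27 for Gm42418 (adjusted p = 0.822 in limma's test) and -0.07 with a standard error of 0.67 for CT010467.1 (adjusted p = 0.970). Both changed sign with the library left out: Gm42418 was at -0.59 without Lf-/- pro-B replicate 1, and CT010467.1 was at 0.68 without replicate 2. Relative to the shift of 0.48 of all genes, CT010467.1 lay lower; with median-ratio scaling it was at -0.71 and Gm42418 at 0.41, and with quantile normalization they were at -0.07 and 0.58. Between stages, pro-B minus pre-pro-B was -0.11 in Lf-/- and -0.18 in WT cells for Gm42418, and -0.33 and 0.15 for CT010467.1. Of the 2 genes, 0 passed an unadjusted p of 0.05 between stages, against 5.73% of all genes in Lf-/- and 0.75% in WT cells, and 0 had an adjusted p under 0.05 (0% of all genes). The difference between the genotype differences of the stages was 0.06 for Gm42418 (standard error 1.64) and -0.48 for CT010467.1 (standard error 0.86); 0 of the 2 passed an unadjusted p of 0.05, against 2.74% of all genes.

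Gm42418 and CT010467.1 moved together over the 7 libraries, which is a relation between loci that overlap. Pearson's r of their log2(FPKM + 1) values was 0.834 (n = 7, exact two-sided permutation test, p = 0.00794, adjusted over 3 pairs 0.0238), and Spearman's rho was 0.821 (exact permutation p = 0.0341, adjusted 0.102). Without the 2 libraries farthest from the median of Gm42418, r was 0.850. With median-ratio scaling r was 0.630 and its adjusted exact permutation p was 0.331. Leaving out 1 library gave r between 0.710 and 0.903, and the adjusted exact permutation p no longer passed 0.05 without WT pre-pro-B replicate 1 (r = 0.820), without WT pro-B (0.858), and without either replicate of Lf-/- pro-B (0.710 and 0.837), with n = 6 in each. The 7 libraries belong to 4 groups and are not fully exchangeable. AY036118, at less than the worth of 1 fragment in the 6 libraries of known depth, has no value from which a relation could be read. Its r was 0.201 with Gm42418 (exact permutation p = 0.662, adjusted 0.975; rho = 0.393, p = 0.396, adjusted 0.593) and 0.037 with CT010467.1 (exact permutation p = 0.975, adjusted 0.975; rho = 0, p = 1, adjusted 1). Without the 2 farthest libraries these were 0.554 and -0.117.

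In the pro-B stage libraries with Lf-/- genotype, Lars2 and these loci were high in different replicates. Lf-/- pro-B replicate 1, with the highest Gm42418 and CT010467.1, had Lars2 at 0.185 FPKM, and Lf-/- pro-B replicate 2, with the lowest of both, had Lars2 at 7.91 FPKM. The pre-pro-B libraries had chosen Lars2 and are not read for this. Because the Lars2 values fall into a high and a low cluster, each of fewer than 6 libraries, its relation to the other 4 genes over libraries was not tested. With Gm15564 listed at 0 in 6 libraries, its relation to the others was not tested either.

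The 4 ribosomal-RNA-like genes took together 0.182% and 0.225% of the summed FPKM in WT against 0.263% and 0.307% in Lf-/- libraries of the pre-pro-B stage, and 0.210% against 0.411% and 0.137% at the pro-B stage. CT010467.1 carried nearly all of it: Gm42418 reached between 2.57% (WT pro-B) and 10.6% (Lf-/- pro-B replicate 1) of the CT010467.1 value. At the pre-pro-B stage both Lf-/- shares lay above both WT shares, an order that 15.5% of all genes tested also had in their FPKM. At the pro-B stage the WT share lay between the Lf-/- shares. Lars2 itself took at most 0.00975% of the summed FPKM.

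The profiles most like those of Gm42418 and CT010467.1 included 3 short genes annotated as miRNA, of 1 family, in both cases. The others included Snora70, a small nucleolar RNA, Cd96, a lymphocyte surface receptor, and Hist2h2aa1, a histone gene. For Gm42418 they were Gm23935 (Pearson's r = 0.914), Gm24187 (0.889), Snora70 (0.871), Gm25911 (0.852) and Cd96 (0.813), and for CT010467.1 they were Gm23935 (0.894), Gm24187 (0.853), Gm25911 (0.834), Gm42418 (0.834) and Hist2h2aa1 (0.744), all over 7 libraries. Gm23935 (chr16:11144125-11144181), Gm24187 (chr13:9834469-9834525) and Gm25911 (chr1:167340369-167340424) belong to a family of 6 near-identical loci on 6 chromosomes, shown here 5′ to 3′ from GENCODE M21 because they are the transcripts nearest in profile. Capitals mark bases that differ from Gm23935.
Gm23935: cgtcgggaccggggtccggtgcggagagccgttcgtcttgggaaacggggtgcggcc
Gm24187: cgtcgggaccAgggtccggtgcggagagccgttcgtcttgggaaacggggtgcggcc
Gm25911: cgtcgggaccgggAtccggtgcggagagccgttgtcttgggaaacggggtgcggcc
Gm23388: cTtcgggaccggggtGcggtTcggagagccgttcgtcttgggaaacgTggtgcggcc
With positions counted from 1 at the 5′ end of Gm23935, Gm24187 differs by G11A, and Gm25911 by G14A and 1 missing base. Gm24245 and Gm24270 were identical to Gm23935 over all 57 bases. The blastn search found no match of the family in the transcripts of the 5 genes. Reads of near-identical copies cannot be assigned with certainty, and Gm23388, with 4 differences, was listed at 0 in all 7 libraries.

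Gm23935 measured 1442 and 1193 FPKM in WT against 2380 and 8370 FPKM in Lf-/- libraries of the pre-pro-B stage, and 2288 FPKM against 11459 and 424 FPKM at the pro-B stage. The 2 Lf-/- pro-B replicates, 27.0-fold apart, held again the highest and the lowest value. Gm24187, the copy with 1 difference, was at 33.6 and 23.0, 47.6 and 179, 73.4, and 326 and 11.9 FPKM in the same order of libraries. In pre-pro-B cells the genotype difference of Gm23935 was 1.77 with a standard error of 0.70 (adjusted p = 0.941 in limma's test), and without Lf-/- pre-pro-B replicate 2 it was 0.86 with a standard error of 0.46. Gm26917, a lincRNA just before the chromosome 17 loci (chr17:39843013-39846341) that was chosen after its values were seen, measured 895 FPKM in the first and 274 FPKM in the second Lf-/- pro-B library, its highest and lowest values of the 7.

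Erythroid markers were also high in the 2 libraries with the highest Gm42418, but not in the next. The 8 genes of that list, with Hba-a1 the most abundant and none at 0, summed to 56090 and 14937 FPKM in WT against 29693 and 105831 FPKM in Lf-/- libraries of the pre-pro-B stage, and 41481 FPKM against 75777 and 38090 FPKM at the pro-B stage. The 2 largest sums and the 2 largest Gm42418 values fell in Lf-/- pre-pro-B replicate 2 and Lf-/- pro-B replicate 1. WT pre-pro-B replicate 2, next in order of Gm42418 at 67.0 FPKM, had the smallest sum. In pre-pro-B cells the median difference of the list was 0.92, and -0.32 without Lf-/- pre-pro-B replicate 2. The part of these cells in the Gm42418 values was not tested.

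**Figure D3:**
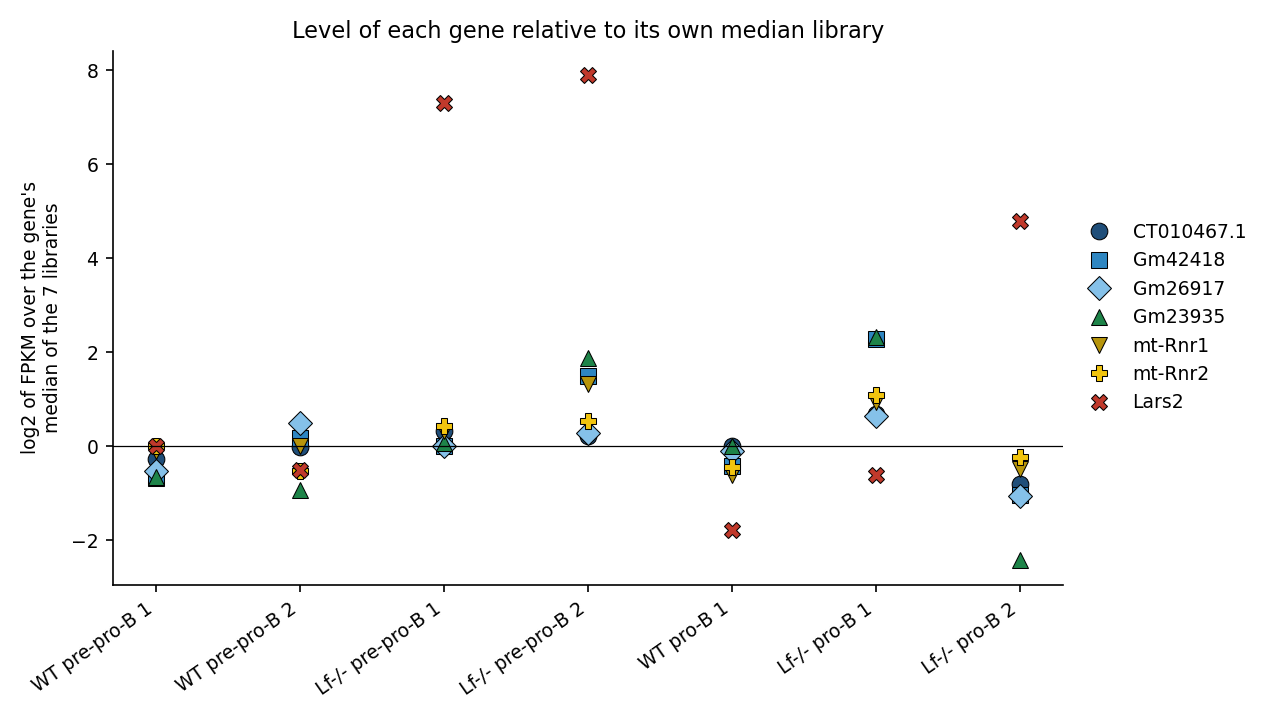
Log2 of FPKM over each gene's own median of the 7 libraries, for the chromosome 17 loci CT010467.1, Gm42418 and Gm26917, the short gene Gm23935, the mitochondrial ribosomal RNAs and Lars2, with 1 marker per gene and library. Gm42418 and Gm23935 are above their medians in Lf-/- pro-B replicate 1 and below them in Lf-/- pro-B replicate 2, and Lars2 the other way round.

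The ribosomal RNAs of the mitochondrion, where the Lars2 protein works, shared the extremes of Gm42418 and CT010467.1 only for the highest value of mt-Rnr2. The small-subunit RNA mt-Rnr1 measured 296 and 316 FPKM in WT against 394 and 785 FPKM in Lf-/- libraries of the pre-pro-B stage, and 206 FPKM against 608 and 227 FPKM at the pro-B stage. The large-subunit RNA mt-Rnr2 was at 719 and 495, 969 and 1049, 527, and 1533 and 608 FPKM. For both genes the Lf-/- pre-pro-B libraries lay above the WT ones, as for 15.5% of all genes tested. The highest mt-Rnr2 was in Lf-/- pro-B replicate 1 and the highest mt-Rnr1 in Lf-/- pre-pro-B replicate 2, while Lf-/- pro-B replicate 2 was the lowest for neither. Between the Lf-/- pro-B libraries, replicate 1 was 2.68-fold replicate 2 for mt-Rnr1 and 2.52-fold for mt-Rnr2. For CT010467.1 it was 2.81-fold and for Gm42418 10.1-fold, in the same direction. The differences in pre-pro-B cells, 0.86 with a standard error of 0.50 and 0.76 with a standard error of 0.44, did not pass limma's test (adjusted p = 0.941 for both), and without Lf-/- pre-pro-B replicate 2 they were 0.37 and 0.70. The other genes annotated as rRNA that exceeded 1 FPKM in any library, n-R5s205, Gm24786, Gm25180, Gm25606, Gm23114, Gm26004, Gm23473 and Gm22853, reached at most 7.84 FPKM, far below CT010467.1.

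Of 16 mitochondrial aminoacyl-tRNA synthetases besides Lars2, which charge the other mitochondrial tRNAs, 10 were tested in pre-pro-B cells; 5 were higher and 5 lower in Lf-/- cells, with a median difference of 0.15 against 0.03 for all genes. Their range ran from -1.15 (Sars2) to 0.85 (Yars2), and 0 passed an unadjusted p of 0.05, against 2.92% of all genes, so nothing is read from that count. Sars2 measured 3.49 and 3.22 FPKM in WT against 2.84 and 0 FPKM in Lf-/- libraries, and Yars2 at 3.62 and 2.74 against 3.30 and 12.0 FPKM, so both values rest on Lf-/- pre-pro-B replicate 2. Without that library 2 of the 10 were higher and the median was -0.16. All 20 cytosolic synthetases were tested, of which 10 were higher and 10 lower, with a median of 0.06. The cytosolic leucyl-tRNA synthetase Lars measured 5.72 and 4.63 FPKM in WT against 5.34 and 0 FPKM in Lf-/- libraries of the pre-pro-B stage, and 4.63 FPKM against 4.69 and 6.77 FPKM at the pro-B stage.

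Among other genes of mitochondrial translation, more were higher than lower in Lf-/- pre-pro-B cells, but for the translation factors this rested on replicate 2 of that group. Of 12 mitochondrial translation factors tested in pre-pro-B cells, 10 were higher in Lf-/- cells with a median of 0.40, and 4 were higher with a median of -0.17 without Lf-/- pre-pro-B replicate 2. Tufm, the mitochondrial elongation factor, measured 17.1 and 19.3 FPKM in WT against 18.9 and 56.3 FPKM in Lf-/- libraries. The 13 mRNAs encoded in the mitochondrion were all higher in Lf-/- pre-pro-B cells, with a median of 0.30, and 12 were higher without that library. With median-ratio scaling 9 of the 13 were higher, with a median of 0.13 against -0.10 for all genes. Of the 3 mitochondrial rRNAs and leucine tRNAs tested, all were higher in Lf-/- pre-pro-B cells, with a median of 0.76, which was 0.70 without that library and 0.60 with median-ratio scaling. None of these genes in pre-pro-B cells passed an unadjusted p of 0.05, against 2.92% of all genes tested, a share at which few or none of so short lists would pass.

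Of 18 tested genes of RNA polymerase I and ribosomal RNA processing, 12 were higher and 6 lower in Lf-/- pre-pro-B cells, with a median of 0.25, and 5 were higher with a median of -0.25 without Lf-/- pre-pro-B replicate 2. The lowest was Dkc1, the pseudouridine synthase of ribosomal RNA, at 13.1 and 12.7 FPKM in WT and 10.3 and 0.357 FPKM in Lf-/- cells. Of 10 tested structural RNAs without a poly(A) tail, a list that includes CT010467.1, 5 were higher and 5 lower, with a median of -0.01. At an unadjusted p under 0.05, 1 of them was higher, the vault RNA Vaultrc5 (2% of all genes). It measured 0.878 and 0 FPKM in WT and 1.88 and 3.80 FPKM in Lf-/- cells (difference 1.44, and 1.07 without replicate 2 of the latter). Vaultrc5 passed the filter only through the Lf-/- libraries, where it was high, so nothing is read from that call. With median-ratio scaling 2 of the 10 were higher, with a median of -0.18.

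At the pro-B stage most of these lists had medians near that of all genes, with the mitochondrial rRNAs and leucine tRNAs above it and the structural RNAs below it. The medians were 0.41 for the mitochondrial synthetases, 0.55 for the cytosolic ones, 0.53 for mitochondrial translation factors, 0.61 for mitochondrially encoded mRNAs, 0.87 for mitochondrial rRNAs and leucine tRNAs, and 0.57 for RNA polymerase I and ribosomal RNA processing, against 0.48 for all genes. With median-ratio scaling that of the mRNAs was -0.0298 and that of mitochondrial rRNAs and leucine tRNAs was 0.22, against 0.01 for all genes. The structural RNAs had a median of -0.07 over 11 genes, with 5 higher and 6 lower, and -0.50 with median-ratio scaling against 0.01 for all genes. Of these 7 lists 1 gene, mt-Tl1, a mitochondrial leucine tRNA, was higher with an unadjusted p under 0.05 (4.18% of all genes) and 0 were lower (0.148%). It measured 3.65 and 5.32 FPKM in WT against 8.52 and 7.67 FPKM in Lf-/- libraries of the pre-pro-B stage, and 5.30 FPKM against 15.5 and 12.6 FPKM at the pro-B stage. Its pro-B difference was 1.25 with a standard error of 0.47 (adjusted p = 0.822 in limma's test).

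**Figure D4:**
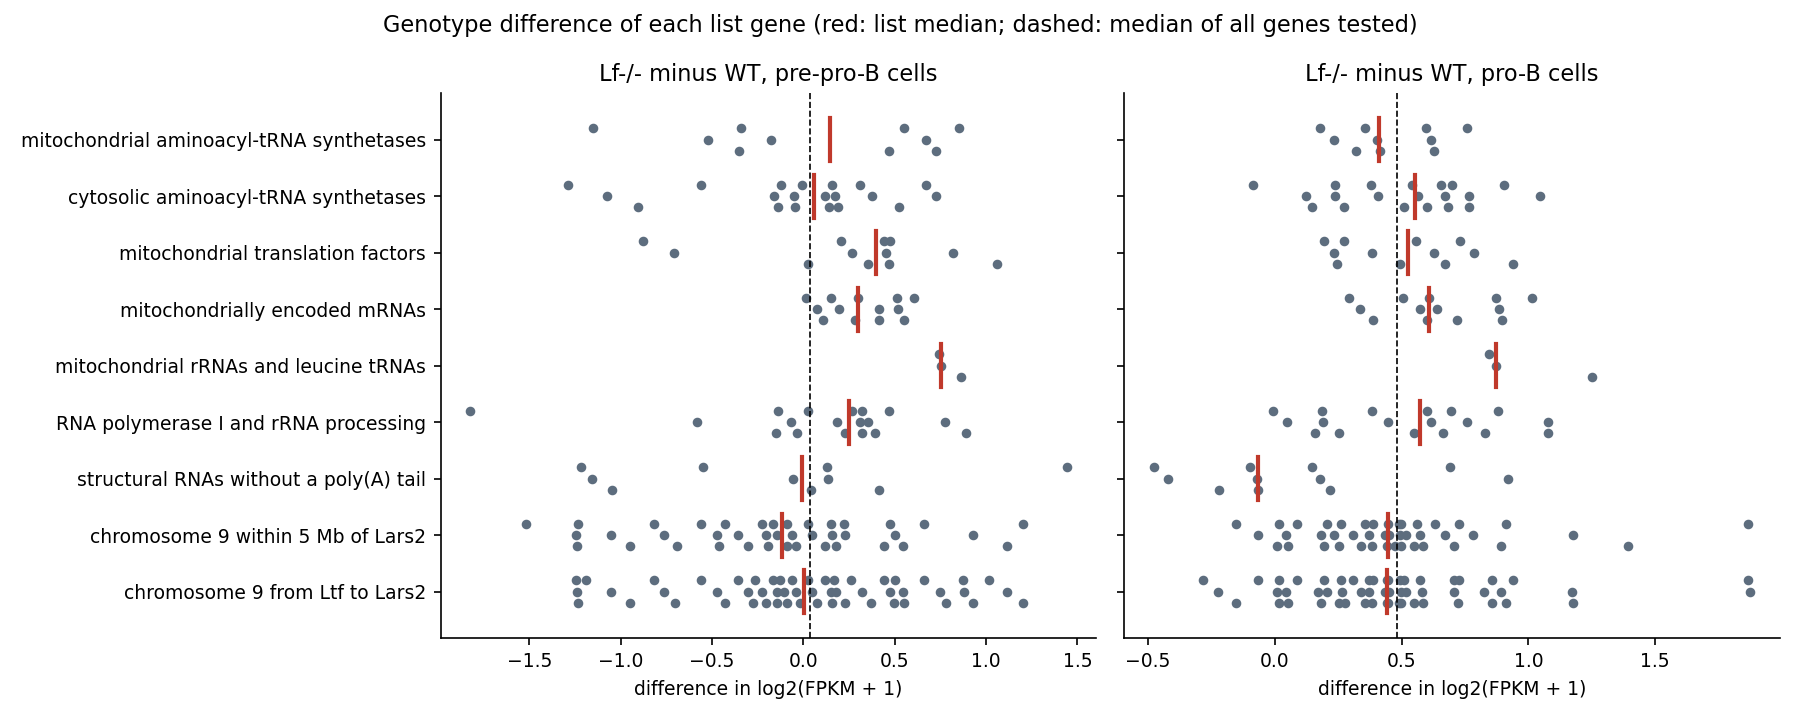
Difference between Lf-/- and WT cells on the log2(FPKM + 1) scale for each tested gene of 9 lists, in pre-pro-B (left) and pro-B cells (right); red bars are list medians and the dashed line is the median of all genes tested. The dashed line is at 0.03 for the earlier and 0.48 for the later stage, and list medians run from -0.12 to 0.76 and from -0.07 to 0.87.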

How the data were processed

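The authors sequenced RNA of sorted cells and deposited 1 table per library. The deposited values were read as FPKM from the values themselves; the unit is inferred. The submitters' processing notes name TopHat, Cufflinks, HTSeq, DESeq and GRCm38, without role or version. Genes were matched by identifier to GENCODE M21 on GRCm38. On the log2(FPKM + 1) scale, limma 3.58.1 under R 4.3.3 fitted every gene that reached 1 FPKM in 2 or more of the libraries compared, with a variance trend over mean level and Benjamini-Hochberg adjustment over all genes: the 4 pre-pro-B libraries for their genotype difference, and 4 group means over 7 libraries for the other comparisons. The fits were tested on simulated data. Transcripts were compared with blastn 2.17.0. Python 3.11.15 with pandas 2.3.3, numpy 2.4.6, scipy 1.17.1 and matplotlib 3.10.9 was used elsewhere. Fragment numbers were estimated from the step between low values, in 6 of the 7 libraries.

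The members and lists were chosen with earlier results of these data known. Named genes were the 5 members, Ltf, expressed rRNA genes, the 8 (Lars2) or 5 genes of the most similar profile, the 5 nearest expressed neighbours on each side, and at most 4 genes per list with the largest pre-pro-B difference. Alternatives were a pseudocount of 0.1, other filters and scalings, the replicate block, and each replicate left out.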

Additional observations from a re-analysis of the deposited data

How the results depend on the processing

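In limma's test with Benjamini-Hochberg adjustment, 0 genes had an adjusted p under 0.05 in any comparison, while 284, 467, 618, 81 and 296 genes had an unadjusted p under 0.05 for genotype at the pre-pro-B stage, genotype at the pro-B stage, stage in Lf-/- cells, stage in WT cells and the difference of the genotype differences. Leaving out 1 library gave 0 to 2856 adjusted and 142 to 4580 unadjusted calls in pre-pro-B cells, the most without replicate 1 of Lf-/- pre-pro-B and 789 unadjusted without its replicate 2; it gave 0 to 1 and 155 to 2335 for the pro-B stage, the most without either Lf-/- pre-pro-B library (2335 and 2315), 0 to 2974 and 214 to 4616 for stage in Lf-/- cells, 0 to 1 and 60 to 775 for stage in WT cells, and 0 to 523 and 104 to 2947 for the difference of differences. The 2974, 4616, 775, 523 and 2947 came without replicate 1 of Lf-/- pre-pro-B; without its replicate 2 the unadjusted counts were 1007, 762 and 1639 for these 3 comparisons. Without a filter 649 genes passed unadjusted in pre-pro-B cells, and 256 adjusted and 1979 unadjusted in pro-B cells. With all 7 libraries in 1 fit 528 passed unadjusted in pre-pro-B cells. At the pro-B stage 270 passed unadjusted with median-ratio scaling and 307 with quantile normalization; with a pseudocount of 0.1, 377 passed for stage in Lf-/- cells and 195 for the difference of differences, where median-ratio scaling gave 139. The causes were not tested.

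With the replicate block, 65 genes passed adjusted and 532 unadjusted in pre-pro-B cells and 87 adjusted for stage in Lf-/- cells. Same-numbered libraries did not deviate together (correlation over genes 0.0393 between WT and Lf-/- pre-pro-B and -0.0127 between Lf-/- stages). Each group here had only 2 replicates, and both correlations include the library that stood apart. These values therefore cannot decide whether same-numbered libraries share mice or a batch.

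Leaving out 1 library moved Gm42418 from -0.59 to 2.69 and CT010467.1 from -0.81 to 0.68 for genotype in pro-B cells, from -1.76 to 1.53 and from -1.08 to 0.41 for stage in Lf-/- cells, and from -1.58 to 1.71 and from -1.23 to 0.26 for the difference of differences. For stage in WT cells Gm42418 ran from -0.60 to 0.25 and CT010467.1 from 0.03 to 0.27. With median-ratio scaling Gm42418 was at 0.21 for stage in WT cells and -0.40 for the difference of differences, against -0.18 and 0.06. For CT010467.1 it gave 0.55 and -0.96, against 0.15 and -0.48, and 0.24 against 0.41 for genotype at the pre-pro-B stage. The Lars2 difference in pre-pro-B cells stayed between 5.22 and 5.79 with 1 library left out, and was 7.35 with a pseudocount of 0.1, which also gave 3.05 for genotype at the pro-B stage and -0.90 for stage in WT cells (1.59 and -0.20 with 1). Its stage difference in Lf-/- cells ran from -5.57 to -2.66, and its difference of differences from -5.37 to -2.46.

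Pearson's r of Gm42418 and CT010467.1 lay between 0.710 and 0.903 with 1 library left out, past the adjusted threshold in 3 of 7 cases, and at 0.630 with median-ratio scaling. For Gm42418 and AY036118 it lay between -0.0192 and 0.641, and at -0.0049 with median-ratio scaling, and for CT010467.1 and AY036118 between -0.352 and 0.284. As FPKM times transcript length, the ribosomal-RNA-like genes took 0.339% and 0.405% of WT pre-pro-B, 0.512% and 0.499% of Lf-/- pre-pro-B, 0.410% of WT pro-B, and 0.709% and 0.236% of Lf-/- pro-B libraries.

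List medians under 2 settings added after seeing the data changed sign as follows. Without Lf-/- pre-pro-B replicate 2, the pre-pro-B medians were -0.16 for mitochondrial synthetases, -0.10 for cytosolic ones, -0.17 for mitochondrial translation factors, -0.25 for RNA polymerase I, 0.0437 for structural RNAs and -0.15 for the genes from Ltf to Lars2, beside -0.10 for all genes. With median-ratio scaling they were -0.10 for cytosolic synthetases and -0.0913 for the genes from Ltf to Lars2, where the median of all genes went from 0.03 to -0.10. In pro-B cells it gave -0.0298 for mitochondrially encoded mRNAs, -0.0141 for the genes within 5 Mb of Lars2 and -0.0183 for those from Ltf to Lars2, while the median of mitochondrial rRNAs and leucine tRNAs moved from 0.87 to 0.22 without a change of sign; the median of all genes went from 0.48 to 0.01 there. In the same way, leaving out Lf-/- pre-pro-B replicate 2 for other genes and for marker lists was added after seeing the data. The median difference of pre-pro-B cells became -0.32 for the erythroid list (0.92 with it) and -1.22 for the T and NK cell list, with 1 gene tested (0.54 with it), and the causes were not tested. Counting error could not be given for Lf-/- pre-pro-B replicate 2, and Lars2 rested on about 4.5 to 12 fragments in 4 libraries. A setting of at least 1 FPKM in every library left no value for Lars2, and leaving out WT pro-B left no genotype comparison at that stage.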

Other observations

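Markers of other cell types gave these sums. The 9 monocyte and macrophage genes, with Ly6c2 the most abundant, summed to 1158 and 2012 FPKM in WT against 747 and 1022 FPKM in Lf-/- libraries of the pre-pro-B stage, and 1098 FPKM against 650 and 877 FPKM at the pro-B stage. These sums are mostly Ly6c2, and in the pro-B fit 6 of the 9 genes were higher in Lf-/- cells (median 0.33, against 0.48 for all genes). The 8 T and NK cell genes, with Cd3d the most abundant, summed to 19.3 and 9.26, 6.08 and 44.4, 19.2, and 54.0 and 68.4 FPKM in the same order, and 5 of them were listed at 0 in Lf-/- pre-pro-B replicate 2 (Cd3g, Trac, Cd4, Ncr1 and Klrb1c). The 5 plasmacytoid dendritic cell genes summed to 42.5 and 37.3, 52.5 and 211, 41.2, and 145 and 162 FPKM. Their part in the values of the 5 genes was not tested.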
